A study of Homo sapiens with 9 samples.

Results

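The human mitochondrial ribosome is built from nuclear-encoded proteins, and the genes described here were the 78 protein-coding genes whose symbols are MRPL or MRPS followed by a number, with or without a letter. They comprised 49 MRPL and 29 MRPS genes out of the 60675 genes in the count files, and they lay on 21 chromosomes. Symbols were assigned through the Ensembl identifiers of the files, and pseudogenes were left out. Their RNA was measured by RNA sequencing in LNCaP:C42, a castrate-resistant derivative of the LNCaP prostate cancer cell line that is sensitive to enzalutamide. The series asked how depletion of METTL3, the catalytic subunit of the RNA m6A methyltransferase, alters gene expression in these cells. Cells carried a doxycycline-inducible short hairpin RNA in a puromycin-resistance lentiviral vector, made in HEK293T packaging cells. The 3 groups were shScramble, a hairpin with no gene target, shMETTL3 guide 2 and shMETTL3 guide 1, with 3 libraries each. All 9 libraries, controls included, came from transduced cells selected with puromycin and grown in charcoal-stripped serum. These cells received 1 µg/ml doxycycline for 6 days, and the sample titles also name a vehicle. The study's methods name ethanol as the vehicle control of its androgen experiments, and do not say which vehicle the sequenced cells received. Nothing in the labels says that the 3 libraries of a group were separate cultures or transductions, so p-values measure only the spread between these libraries.

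The mitochondrial ribosome translates the few messenger RNAs encoded by mitochondrial DNA, all of them for subunits of the respiratory chain and ATP synthase. Its RNA is made in the mitochondrion, whereas every protein is encoded in the nucleus, made in the cytosol and imported. Some of the proteins descend from bacterial ribosomal proteins and others were gained in the course of mitochondrial evolution. The transcription factors NRF1, GABP, YY1 and MYC are known regulators of nuclear genes for mitochondria.

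Total counts were between 21899501 and 30897639 per library. Levels are given as CPM (counts per 1000000) on library sizes scaled by TMM, a factor that equalises the bulk of genes between libraries, and tests are quasi-likelihood tests of edgeR, with p-values adjusted by Benjamini-Hochberg over the 19278 genes tested. METTL3 was at 29.8, 31.7 and 33.0 CPM in shScramble, at 16.6, 16.5 and 15.8 CPM with guide 2, and at 29.4, 30.1 and 29.6 CPM in the libraries labelled guide 1. It was lower with guide 2 by the test (log2 fold change -0.95 ± 0.07 SE, adjusted p = 2.97e-12) and did not pass in the libraries labelled guide 1 (-0.08 ± 0.06, adjusted p = 0.251), so the latter are referred to by their label. The libraries also differed in marker genes. The summed level of 6 genes known from HEK293T cells (NEFL, NEFM, INA, LIN28B, HMGA2, CDKN2A) was 31.3 to 37.1 CPM in shScramble, 8.20 to 9.49 CPM with guide 2 and 330 to 379 CPM in the libraries labelled guide 1, and 6 of the 6 were lower with guide 2, from CDKN2A (-1.33) to INA (-4.79), and higher in the libraries labelled guide 1 by the test. The summed level of 10 prostate luminal markers was 2661.5 to 2690.1 CPM, 3023 to 3156 CPM and 1379 to 1424 CPM in the same order, with HOXB13 higher and KLK3 lower with guide 2 (log2 fold changes 0.78 and -0.82). In the libraries labelled guide 1, 8 of the 10 had an adjusted p under 0.05 and were lower, 5 of them by a fold of 1.5 or more, and 0 were higher. The shares lower by these 2 rules were 33.0% and 16.5% of all genes tested. None of the 10 was at 0 throughout a group, which by itself does not establish the cell type. Stromal and immune markers summed to 19.7 to 47.9 CPM, with 2 of 8, DCN and PECAM1, at 0 in every library. The number of genes with a count was 28459 to 29586 in shScramble, 24884 to 26505 with guide 2 and 29193 to 29628 in the libraries labelled guide 1. The part of these differences in the results that follow was not tested, and in bulk RNA fewer cells of a kind and less RNA per cell cannot be told apart.

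Promoter windows were available for 69 of the 78 genes, from 250 bases before to 50 bases after the RefSeq start on GRCh38.p14. For each gene only the first start listed was used, and other starts were not searched. This start can lie inside the counted gene, as for MRPL36, whose exons on the minus strand begin at position 1801366. The windows of 6 members are shown from 170 bases before to 30 bases after the start, 5′ to 3′ on the coding strand. Capitals mark 4 exact motifs, searched on both strands: CCGGAAG, a core of ETS sites such as those of GABP; AAGATGGCG, a core of YY1 sites; CACGTG, the E-box of MYC and its relatives; and GCGCATGCGC, the NRF1 palindrome. The ETS letters end in AAG, with which the YY1 letters begin, so these matches can overlap. MRPL36 (chr5:1799808-1800007, minus strand), MRPL16 (chr11:59810749-59810948, minus strand) and MRPL34 (chr19:17292403-17292602, plus strand) were the members with the highest values for guide 2, MRPL17 (chr11:6683311-6683510, minus strand) held the NRF1 palindrome, MRPL20 (chr1:1407264-1407463, minus strand) was lower in the libraries labelled guide 1, and MRPL52 (chr14:22829717-22829916, plus strand) was not called with guide 2.
MRPL36: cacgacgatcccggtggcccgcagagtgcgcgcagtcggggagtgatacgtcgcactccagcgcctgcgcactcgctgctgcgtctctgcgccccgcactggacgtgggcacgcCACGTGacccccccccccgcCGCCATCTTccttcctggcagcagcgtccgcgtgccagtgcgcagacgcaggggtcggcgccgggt
MRPL16: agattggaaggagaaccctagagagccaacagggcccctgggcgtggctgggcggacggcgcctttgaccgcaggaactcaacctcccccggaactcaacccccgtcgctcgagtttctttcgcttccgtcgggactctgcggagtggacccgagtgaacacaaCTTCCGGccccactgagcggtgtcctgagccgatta
MRPL17: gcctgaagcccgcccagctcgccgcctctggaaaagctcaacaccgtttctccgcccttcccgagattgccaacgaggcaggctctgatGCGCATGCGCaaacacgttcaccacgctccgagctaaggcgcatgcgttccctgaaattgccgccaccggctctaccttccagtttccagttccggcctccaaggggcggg
MRPL20: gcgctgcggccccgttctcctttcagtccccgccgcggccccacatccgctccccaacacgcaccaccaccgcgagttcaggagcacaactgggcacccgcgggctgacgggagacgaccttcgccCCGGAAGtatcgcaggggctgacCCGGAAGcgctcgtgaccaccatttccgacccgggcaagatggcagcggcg
MRPL52: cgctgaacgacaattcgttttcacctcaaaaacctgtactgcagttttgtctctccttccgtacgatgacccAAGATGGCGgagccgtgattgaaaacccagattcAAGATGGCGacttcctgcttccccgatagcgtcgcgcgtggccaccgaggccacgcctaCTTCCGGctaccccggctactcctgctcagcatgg
MRPL34: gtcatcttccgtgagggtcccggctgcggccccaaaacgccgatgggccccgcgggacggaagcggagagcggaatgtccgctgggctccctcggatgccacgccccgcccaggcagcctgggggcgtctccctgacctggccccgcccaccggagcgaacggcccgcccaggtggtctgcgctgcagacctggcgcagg

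The ETS core was present in 29 of the 69 windows, as in MRPL16, MRPL20 and MRPL52 above, and in 10.7% of the 27305 promoters of the RefSeq table and 14.4% of its 15226 promoters of protein-coding genes. The YY1 core was in 13 windows (18.8%, against 1.85% and 2.81%), among them MRPL36 and MRPL52. The E-box was in 6 (8.70%, against 7.43% and 8.92%), and the NRF1 palindrome was in 1, MRPL17 (1.45%, against 1.36% and 1.73%). No motif of the 4 was found in 27 windows, including that of MRPL34. The median GC content of the members' windows was 60.3%, and that of protein-coding promoters was 63.0%. Of the 15 members raised with guide 2 that are described next, 13 had a window, and 2 of these 13 held the ETS core. The median log2 fold change with guide 2 was 0.28 for the 29 members with the ETS core and 0.42 for the 39 tested members without it, and it was 0.31 and 0.34 for the 12 with and the 56 without the YY1 core. These are matches of letters and not measured binding sites. MRPL2, MRPL10, MRPL13, MRPL15, MRPL21, MRPL23, MRPL35, MRPS28 and MRPS36 had no window in the table.

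Members were for the most part well expressed. Compared per length (RPKM, CPM divided by the length of the merged exons in kilobases), the median level over the 78 members in shScramble was 22.3 RPKM, with a middle range of 11.7 to 40.7. The highest were MRPL41 (158 ± 9.67 RPKM, SD, n = 3), MRPS34 (113 ± 2.47), MRPL51 (106 ± 7.60), MRPS35 (98.7 ± 2.88) and MRPL57 (98.3 ± 5.02). MRPS34 and MRPL51 did not differ beyond their spread, nor did MRPS35 and MRPL57. All 5 encode proteins particular to mitochondria, without a bacterial counterpart. The lowest among tested members were MRPL38 (1.49 ± 0.12 RPKM), MRPL53 (1.497 ± 0.485) and MRPL46 (2.51 ± 0.15), and MRPL38 and MRPL53 did not differ beyond their spread. MRPL38 and MRPL53 share 41.1% and 45.2% of their exon bases with another gene on the same strand, for MRPL53 the gene CCDC142, so reads that could belong to either may be missing from their counts. MRPS24, whose protein belongs to the small subunit, failed the filter on low counts, with 3, 4 and 8 counts in shScramble, 7, 3 and 3 with guide 2 and 8, 10 and 8 in the libraries labelled guide 1, and it shares 23.2% of its exon bases with the read-through gene URGCP-MRPS24. The other 77 members were tested, and 64 of them were among the 6426 most expressed genes (by mean CPM, 1 in 3 of those tested). The coefficient of variation between libraries of a group had a median of 4.65% over members.

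With guide 2, the RNA of mitochondrial ribosomal proteins was higher as a group of genes. The summed level of the 78 members was 5389, 5559 and 5648 CPM in shScramble and 7348, 7300.0 and 7390 CPM with guide 2, a mean 1.33 times as high, and the groups did not overlap. Of the 77 members tested, 15 were raised at the study's limits, a fold of 1.5 or more and an adjusted p under 0.05, against 8.85% of all genes tested and 10.7% of the 6426 most expressed of them. At these limits 0 were lowered in edgeR, against 20.4% of all genes and 3.38% of these 6426 genes, and 0 in DESeq2, and since the lowest value was -0.40 none reached the fold limit at any p. By the adjusted p alone, 59 were raised (background 30.0%, and 54.9% in these 6426 genes), 2 were lowered (31.7% and 19.4%) and 16 were not called. The median log2 fold change of the members was 0.37, a fold change of 1.29, and the middle 50% of them lay between 0.22 and 0.54. The median over all genes tested was -0.04, and that of these 6426 genes was 0.16. In 64 members each guide 2 library was above each shScramble library, and in 2 each was below. Over all genes tested these shares were 32.5% and 34.1%, and they were not counted in the 6426 most expressed genes. With all libraries scaled by library size alone, the members' median was 0.22 and 7 were raised at both limits, while the median of all genes tested was -0.19. Of all 19278 genes tested, 1012 were raised at both limits by this scaling, against 1706 with TMM.

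**Figure D1:**
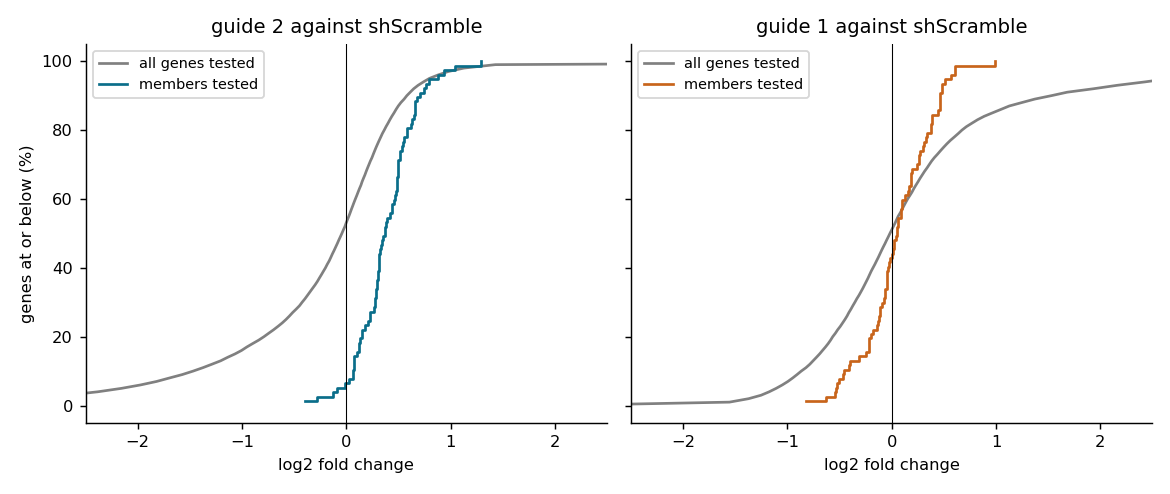
Cumulative share of genes (vertical axis, %) at or below each log2 fold change (horizontal axis) for guide 2 (left) and the libraries labelled guide 1 (right) against shScramble, with the 77 members tested in colour and all 19278 genes tested in grey. With guide 2 the members' curve lies to the right of the grey curve over most of its range, with medians of 0.37 and -0.04, and in the libraries labelled guide 1 the members' curve crosses the grey one near 0 and is steeper.

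Both subunits were higher with guide 2. The 51 members of the large subunit summed to 3413, 3543 and 3613 CPM in shScramble, to 4710.2, 4668 and 4704 CPM with guide 2 and to 3668, 3233 and 3505 CPM in the libraries labelled guide 1. The 26 members of the small subunit summed to 1954, 1989.7 and 2007 CPM in shScramble, to 2594, 2593 and 2649 CPM with guide 2 and to 2071, 1913 and 2008 CPM in the libraries labelled guide 1. The guide 2 libraries were above all others in both sums, with means of 1.33 and 1.32 times that of shScramble, and the other groups overlapped.

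**Figure D2:**
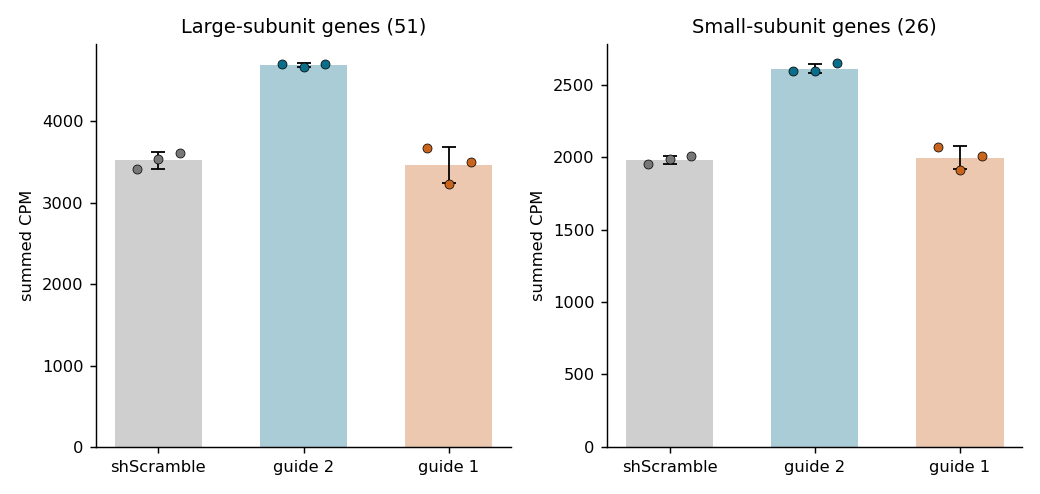
Summed CPM (vertical axis, from 0) of the 51 large-subunit genes (left) and the 26 small-subunit genes (right) in each library (points), with the mean (bars) and SD (error bars) of 3 libraries per group. The guide 2 libraries lie between 4668 and 4710.2 CPM for the large subunit and between 2593 and 2649 CPM for the small subunit, above all shScramble and guide 1 libraries.

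Among the large-subunit proteins with a bacterial counterpart, 8 of 30 were raised at both limits (26.7%, against 8.85% of all genes tested and 10.7% of the 6426 most expressed) and 25 by the adjusted p alone (83.3%, against 30.0% and 54.9%), 30 of 30 had a positive value, and the median log2 fold change was 0.49. The member with the highest value was MRPL36 (ENSG00000171421), among the smallest proteins of the large subunit. Its level was 18.9, 18.9 and 22.2 CPM in shScramble and 49.3, 48.1 and 48.5 CPM with guide 2 (log2 fold change 1.29 ± 0.08 SE, adjusted p = 1.12e-13). In the libraries labelled guide 1 it was at 22.5, 17.9 and 18.2 CPM, on both sides of the shScramble values. Next came MRPL16, which lies near the peptidyl transferase centre, with 49.6, 48.5 and 50.8 CPM in shScramble and 104, 100.2 and 102 CPM with guide 2 (1.04 ± 0.05, adjusted p = 6.22e-16). For both members every guide 2 library was far above every shScramble library.

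MRPL34 was at 43.4, 47.2 and 46.1 CPM in shScramble, 86.7, 84.9 and 89.8 CPM with guide 2 (0.94 ± 0.06, adjusted p = 9.95e-14) and 33.4, 28.3 and 32.2 CPM in the libraries labelled guide 1, so the 3 groups were in 3 separate ranges. MRPL2, a core protein of the peptidyl transferase region, was at 35.8, 33.9 and 35.6 CPM in shScramble and at 60.3, 56.3 and 62.4 CPM with guide 2 (0.76 ± 0.06, adjusted p = 3.85e-12). MRPL14, which sits on the face that meets the small subunit, was at 36.4, 40.3 and 41.0 CPM and at 68.7, 67.3 and 61.6 CPM (0.75 ± 0.07, adjusted p = 4.47e-10). The groups were again separate in both. The remaining 3 raised members of this class were MRPL24 (0.66), MRPL4 (0.63), which lines the tunnel through which the new protein leaves, and MRPL17 (0.62). MRPL4 shares 21.4% of its exon bases with LIMASI on the opposite strand, and no source used here states whether counting used the strand.

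**Figure D3:**
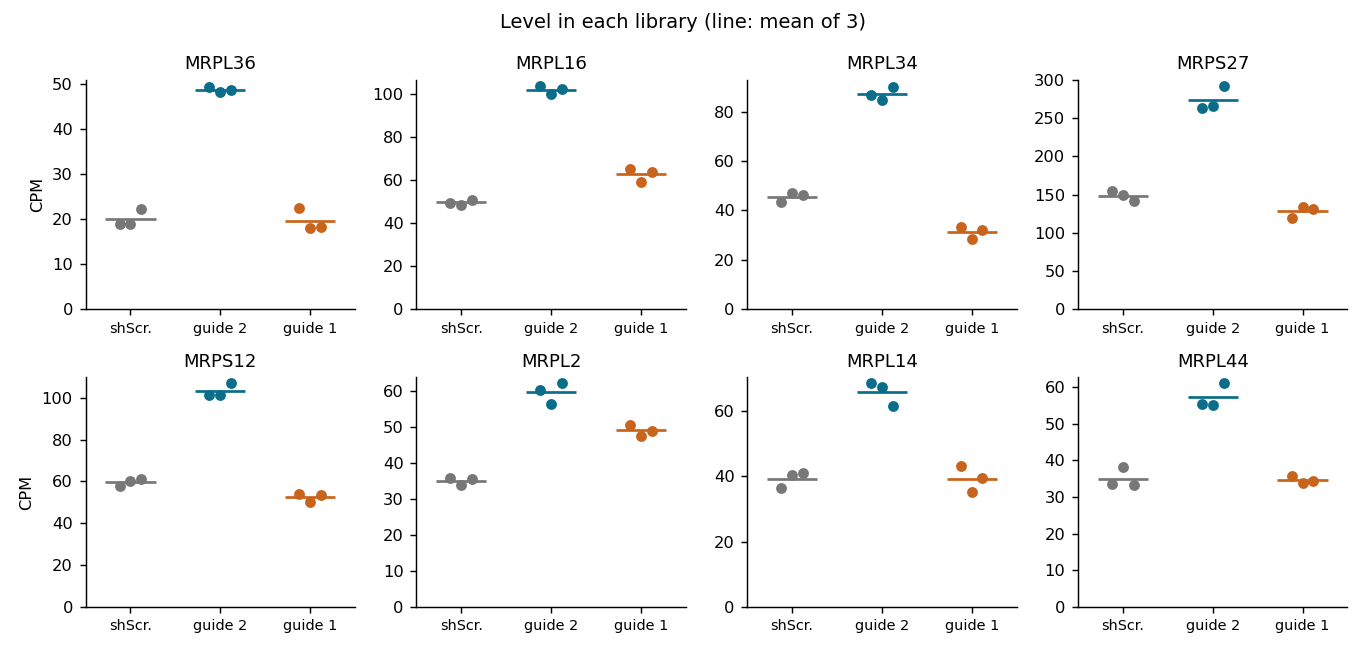
Level (CPM, vertical axes from 0) in each library (points) of the 8 members with the highest log2 fold change for guide 2, with the mean of 3 libraries as a line. The guide 2 points are above all shScramble and guide 1 points in each of the 8 panels, for instance at 48.1 to 49.3 CPM for MRPL36 against 18.9 to 22.2 CPM in shScramble.

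The stalk of the large subunit, which recruits translation factors, was represented by 3 members. MRPL10, the base on which the stalk protein is mounted, was at 63.4, 62.4 and 60.6 CPM in shScramble and 79.4, 86.4 and 87.3 CPM with guide 2 (0.44 ± 0.05, adjusted p = 1.90e-08). MRPL11, also at the base, was higher by less (0.29 ± 0.06, adjusted p = 8.11e-05). MRPL12, the stalk protein, which also binds the mitochondrial RNA polymerase, was at 25.3, 27.9 and 33.9 CPM in shScramble and at 42.4, 41.5 and 34.7 CPM with guide 2. These values did not overlap, but they varied within groups and did not pass the test (0.46 ± 0.21, adjusted p = 0.109), and MRPL12 shares 68.2% of its exon bases with a gene on the same strand. MRPL3, mutated in human disease, was raised by the adjusted p alone (0.50 ± 0.05, adjusted p = 3.81e-10), as were MRPL15 (0.49), MRPL30 (0.27) and MRPL20 (0.28). MRPL1 (0.18 ± 0.08, adjusted p = 0.067) and MRPL55 (0.07 ± 0.05, adjusted p = 0.273) were not called.

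Of the 21 large-subunit proteins classed as particular to mitochondria, 2 were raised at both limits, 12 by the adjusted p alone and 1 was lowered by it. Their median log2 fold change was 0.27. These shares of 9.52% and 57.1% raised lay near the 10.7% and 54.9% of the 6426 most expressed genes. MRPL44, an RNase III-like protein mutated in infantile cardiomyopathy, was at 33.6, 38.3 and 33.2 CPM in shScramble and at 55.3, 55.1 and 61.3 CPM with guide 2 (0.70 ± 0.06, adjusted p = 1.62e-10). MRPS30, which belongs to the large subunit in spite of its name, was at 56.5, 50.5 and 53.4 CPM and at 87.8, 80.2 and 88.6 CPM (0.68 ± 0.06, adjusted p = 5.09e-11). Both had all guide 2 libraries above all shScramble libraries. The member just under the fold limit was MRPL37 (0.58), and MRPS18A, which is also a large-subunit protein, had 0.48 ± 0.07 (adjusted p = 5.08e-07) and shares 47.0% of its exon bases with RSPH9 on the opposite strand. MRPL58, a peptidyl-tRNA hydrolase that rescues stalled ribosomes, had 0.31 ± 0.05 (adjusted p = 9.62e-06).

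The members most abundant per length had values of at most 0.50 with guide 2. MRPL41, MRPL57 and MRPL51 were at 185, 208 and 204 CPM, at 210.4, 219 and 233 CPM and at 152, 169.9 and 173 CPM in shScramble, and at 309, 269.7 and 251 CPM, 282, 289.6 and 296 CPM and 202, 194 and 176 CPM with guide 2. MRPL41 and MRPL57 were raised by the adjusted p alone (0.48 ± 0.14, adjusted p = 0.0211, and 0.39 ± 0.05, adjusted p = 1.80e-07), and MRPL51, which shares 31.3% of its exon bases with NCAPD2 on the opposite strand, did not pass (0.21 ± 0.10, adjusted p = 0.0915). At the other end, MRPL38 was lowered by the adjusted p alone, from 5.63, 5.75 and 4.95 CPM to 4.25, 4.43 and 3.76 CPM (-0.40 ± 0.14, adjusted p = 0.016). MRPL52 (0.02), MRPL53 (-0.01), MRPL54 (-0.12), MRPL39 (0.07) and MRPL46 (0.14) were not called, with adjusted p between 0.114 and 0.960. Across the 77 members, the log2 fold change for guide 2 had a correlation of r = 0.23 (Spearman's rho = 0.13) with the log2 RPKM in shScramble, a description over genes measured in the same libraries.

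In the small subunit, 3 of 15 tested proteins with a bacterial counterpart and 1 of 10 classed as particular to mitochondria were raised at both limits. By the adjusted p alone 13 and 8 were raised, with medians of 0.37 and 0.30. The share of the class particular to mitochondria raised at both limits lay near the 8.85% of all genes tested and the 10.7% of the 6426 most expressed, and the backgrounds of the adjusted p alone were 30.0% and 54.9%. MRPS27, a pentatricopeptide repeat protein that binds mitochondrial RNA, was at 155, 149 and 142 CPM in shScramble and at 264, 267 and 292 CPM with guide 2 (0.88 ± 0.05, adjusted p = 2.71e-14). MRPS12, a protein of the decoding centre, was at 58.0, 60.3 and 60.9 CPM and at 101.3, 101.5 and 107 CPM (0.79 ± 0.05, adjusted p = 1.21e-13). MRPS2, in which mutations cause hearing loss with lactic acidosis, was at 85.1, 81.1 and 78.7 CPM and at 125, 125 and 137 CPM (0.66 ± 0.05, adjusted p = 1.25e-11). In these 3 members the guide 2 libraries were all above the shScramble libraries by a wide margin. MRPS17 was the other raised member (0.66 ± 0.09, adjusted p = 9.50e-07), but it shares 27.0% of its exon bases with another gene on the same strand, and pseudogenes named after it held 11.2% as many counts as the gene.

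The disease genes MRPS34 (0.50), MRPS16 (0.32) and MRPS22 (0.07) differed in size, and the last was not called (adjusted p = 0.238). The paralogs MRPS18A, MRPS18B and MRPS18C differed in direction. MRPS18A and MRPS18B were classed here as particular to mitochondria, although their paralog MRPS18C was classed as having a bacterial counterpart. MRPS18B was at 115, 110.2 and 108 CPM in shScramble and 137, 140.3 and 143 CPM with guide 2 (0.34 ± 0.04, adjusted p = 2.32e-07). MRPS18C was at 20.5, 22.5 and 24.7 CPM and at 17.4, 18.4 and 19.9 CPM, lower by the adjusted p alone (-0.28 ± 0.09, adjusted p = 0.00607), and it shares 40.2% of its exon bases with ABRAXAS1 on the opposite strand. MRPS6 (-0.09 ± 0.09, adjusted p = 0.451) and MRPS10 (0.12 ± 0.05, adjusted p = 0.0358) were near 0. MRPS36, named as a ribosomal protein but known as KGD4, a component of the 2-oxoglutarate dehydrogenase complex, was raised at both limits (0.65 ± 0.10, adjusted p = 5.25e-05). Without shScramble replicate 1 or without guide 2 replicate 1 its value was 0.57 or 0.58, under the fold limit.

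**Figure D4:**
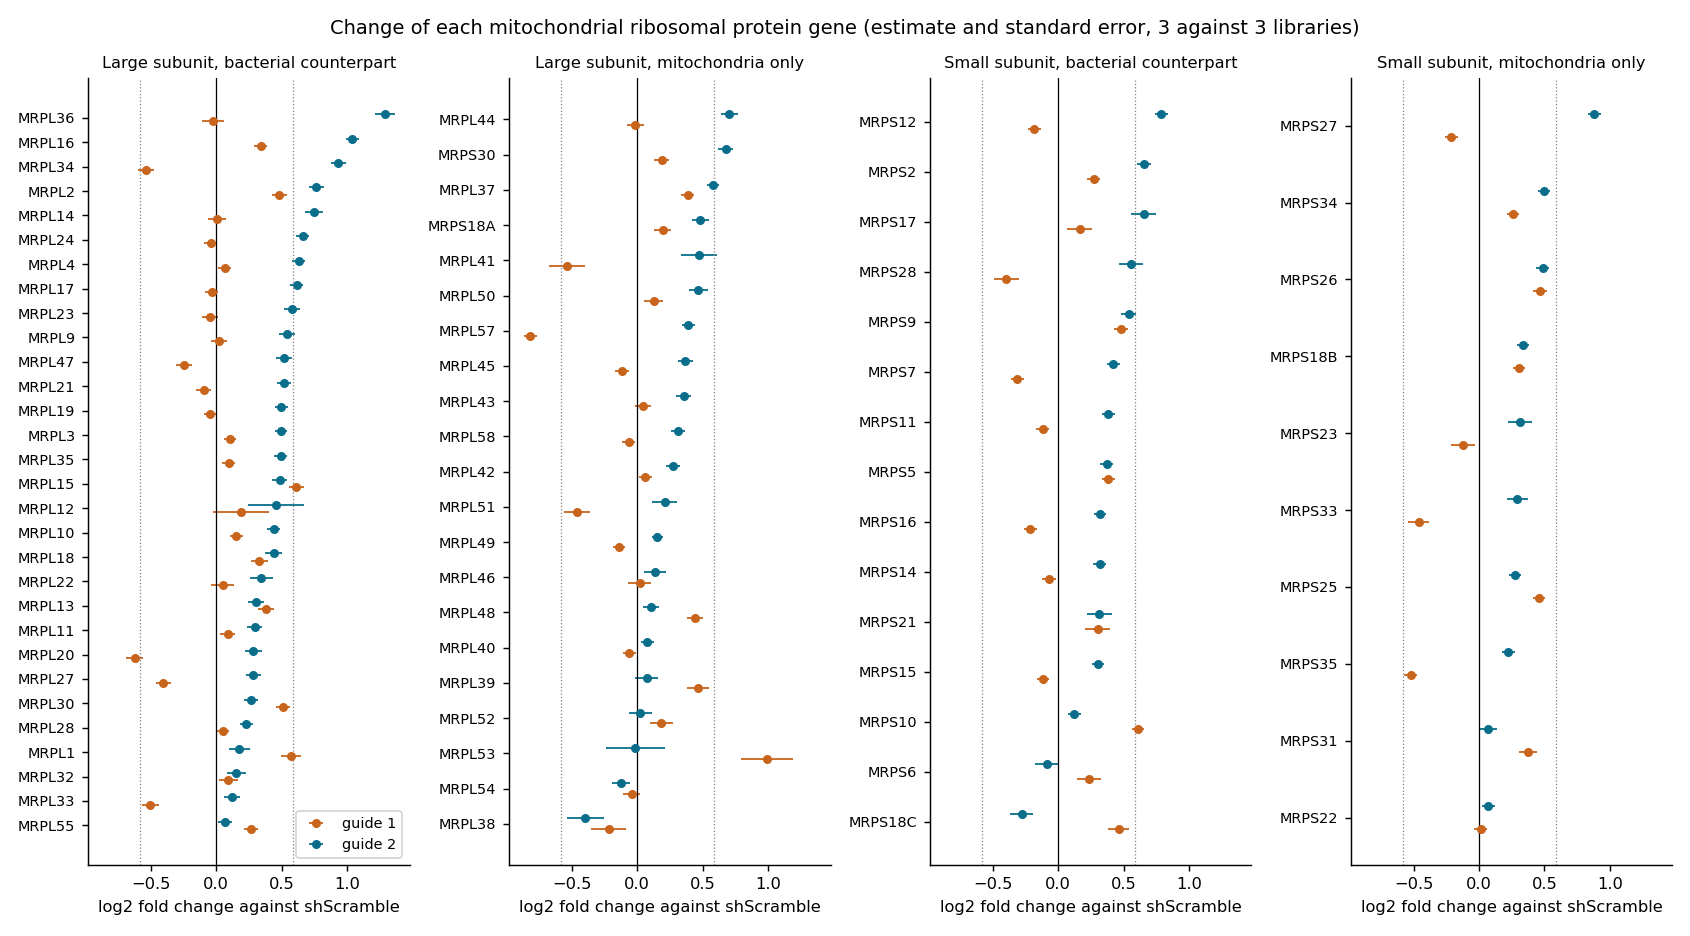
Log2 fold change against shScramble (horizontal axes, points, with the standard error as a bar) of 76 tested members in 4 classes by subunit and origin, for guide 2 and for the libraries labelled guide 1, ordered by the value for guide 2; MRPS36 is not drawn. Dotted lines mark a fold change of 1.5. In the first panel all guide 2 points are above 0, from 0.07 for MRPL55 to 1.29 for MRPL36, while guide 1 points lie on both sides of 0.

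Counts were also taken over members with few shared bases. Of the 78 members, 33 share at least 5% of their exon bases with another gene. The 44 tested members counted here share less, and their named pseudogenes hold under 1% of their counts. With guide 2, 8 of them were raised at both limits (18.2%, against 8.85% of all genes tested and 10.7% of the 6426 most expressed). By the adjusted p alone 36 were raised (81.8%, against 30.0% and 54.9%) and 0 were lowered (background 31.7% and 19.4%). Their median log2 fold change was 0.36, beside -0.04 over all genes tested and 0.16 over these 6426 genes. The other 7 members raised at both limits, MRPL2, MRPL4, MRPL34, MRPL44, MRPS2, MRPS12 and MRPS17, share between 12.9% and 27.0% of their exon bases, MRPS17 with a gene on the same strand and the rest with genes on the opposite strand.

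In the libraries labelled guide 1, members had values on both sides of 0, and the shares called did not exceed those of all genes tested. Their summed level was 5765, 5164 and 5536 CPM, which overlaps that of shScramble. At both limits 3 were raised and 2 lowered (3.90% and 2.60%). These shares were under the 21.2% and 16.5% of all genes tested and the 10.7% and 10.3% of the 6426 most expressed genes. By the adjusted p alone 27 were raised and 18 lowered (35.1% and 23.4%), and 32 were not called. The background was 35.4% and 33.0%, and 36.6% and 40.9% in these 6426 genes. The median log2 fold change was 0.05, beside -0.02 over all genes tested and -0.03 over these 6426 genes. The libraries were all above shScramble in 28 members and all below in 20, against 36.5% and 34.5% of all genes tested. These shares were not counted in the 6426 genes. HEK293T-type markers were about 10.6 times their shScramble level in these libraries and prostate luminal markers 0.52 times. The part of this in the values of single members was not tested.

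MRPL53 had the highest value in the libraries labelled guide 1, with 1.65, 2.76 and 1.62 CPM in shScramble and 4.00, 4.54 and 3.65 CPM (log2 fold change 0.99 ± 0.20, adjusted p = 7.88e-05), at a low level and with the exon sharing given above. MRPS10 was at 52.4, 52.2 and 49.8 CPM and at 79.9, 78.3 and 78.1 CPM (0.61 ± 0.05, adjusted p = 6.78e-12), and MRPL15 was at 51.7, 52.0 and 55.7 CPM and at 89.1, 74.3 and 79.9 CPM (0.61 ± 0.06, adjusted p = 2.07e-10). The groups were separate in all 3. Their values lay near the fold limit for MRPS10 and MRPL15: without shScramble replicate 3 the former was 0.58, and without guide 1 replicate 1 the latter was 0.54. MRPL1 (0.57) and MRPL30 (0.51) followed.

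MRPL57 had the lowest value, with 210.4, 219 and 233 CPM in shScramble and 135, 116 and 125 CPM in the libraries labelled guide 1 (-0.82 ± 0.05, adjusted p = 5.05e-14). MRPL20 was at 143, 153 and 160.4 CPM and at 110.2, 87.5 and 98.2 CPM (-0.63 ± 0.06, adjusted p = 3.44e-08). Its value was -0.55 without guide 1 replicate 2, and it shares 15.5% of its exon bases with RN7SL657P on the same strand. MRPL57 and MRPL20 were below shScramble in every library. MRPL34 (-0.54), MRPL41 (-0.54 ± 0.14, adjusted p = 0.0118) and MRPS35 (-0.52) were lowered by the adjusted p alone. The value of MRPL41 was -0.67 without guide 1 replicate 1 and -0.59 without shScramble replicate 1, past the fold limit. Of the 5 most abundant members per length, MRPL41, MRPL51, MRPS35 and MRPL57 were thus lower by the adjusted p in these libraries, as were 40.9% of the 6426 most expressed genes, and MRPS34 was higher (0.26 ± 0.05, adjusted p = 1.26e-05), as were 36.6% of them. Across the 77 members, the log2 fold change had r = -0.33 (rho = -0.27) with the log2 RPKM in shScramble.

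The comparisons of the 2 hairpins with shScramble share the control libraries, so their values are given side by side. MRPL34, for instance, had 0.94 with guide 2 and -0.54 in the libraries labelled guide 1, MRPL57 had 0.39 and -0.82, MRPS27 had 0.88 and -0.21, and MRPS18C had -0.28 and 0.46. In the direct comparison of guide 2 with guide 1, 23 members were higher with guide 2 and 2 were lower at both limits (background 19.1% and 28.2%, and 22.3% and 9.73% in these 6426 genes), and 51 and 12 by the adjusted p alone (34.7% and 39.9%, and 54.1% and 29.7%). The median log2 difference was 0.34, beside -0.06 over all genes tested and 0.18 over the 6426 most expressed of them. The libraries were separate with guide 2 above in 51 members and below in 11, against 35.4% and 40.4% of all genes tested. The 6426 genes were not counted in this way. The widest difference was that of MRPL34, followed by MRPL36, MRPL57, MRPS27 and MRPL41, and the lowest were MRPL53, MRPS18C, MRPS10, MRPL1 and MRPL39.

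Other genes of mitochondrial translation were read from the same test, in which 8.85% of all genes and 10.7% of the 6426 most expressed were raised at both limits with guide 2, and 30.0% and 54.9% by the adjusted p alone. Of 5 mitoribosomal proteins with other symbols, 2 were raised at both limits with guide 2 and 4 by the adjusted p alone. CHCHD1, a small-subunit protein, was at 46.2, 51.8 and 52.4 CPM in shScramble and at 97.2, 90.9 and 91.7 CPM (0.90 ± 0.10, adjusted p = 1.86e-05), and GADD45GIP1, a large-subunit protein, had 0.85 ± 0.06 (adjusted p = 3.89e-13). Their guide 2 libraries were all above shScramble. Of 25 assembly factors, 1 was raised, the GTPase NOA1 (0.63), 1 was lowered, the GTPase MTG1 (-0.64), and 19 and 3 were called by the adjusted p alone. Of 16 translation factors, 3 were raised, with MTFMT, which formylates the initiator tRNA, at 0.74 and the elongation factor TSFM at 0.63, and 7 were raised by the adjusted p alone.

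Of 20 mitochondrial tRNA synthetases, 4 were raised at both limits with guide 2, from YARS2 (0.62) to the leucyl-tRNA synthetase LARS2, at 49.5, 49.7 and 47.0 CPM in shScramble and at 100.5, 97.8 and 99.7 CPM (1.03 ± 0.05, adjusted p = 4.03e-15). By the adjusted p alone 17 were raised and 1 lowered. Of 17 genes of mitochondrial transcription and RNA processing, 2 were raised, FASTKD1 (0.72) and TRMT10C (0.61), and 13 by the adjusted p alone. The share raised by the adjusted p alone was 76.0% to 85.0% in 4 of these lists and 43.8% in the translation factors, under the 54.9% of the 6426 most expressed genes. The medians of the 5 lists were between 0.19 and 0.38 with guide 2 and between -0.09 and 0.16 in the libraries labelled guide 1. Cytosolic ribosomal proteins had a median of 0.15 with guide 2, and of 81 tested 70 had a positive value, 3 were raised and 2 lowered at both limits, and 38 (46.9%) and 4 were called by the adjusted p alone.

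Of the 13 protein-coding genes of mitochondrial DNA, which the mitochondrial ribosome translates, 12 had a negative value with guide 2, and MT-ATP8 had a positive value that did not pass the test (0.67 ± 0.53, adjusted p = 0.31). Their summed level was 42631, 42235 and 39799 CPM in shScramble, 29899, 38554 and 28793 CPM with guide 2 and 38034, 38938 and 39974 CPM in the libraries labelled guide 1. All guide 2 libraries were below all shScramble libraries, but guide 2 replicate 2 stood apart from the other 2 of its group and lay inside the range of the libraries labelled guide 1. With guide 2, 2 of the 13 genes were lowered at both limits, MT-ND1 (-0.73 ± 0.16, adjusted p = 0.00647) and MT-CYB (-0.64 ± 0.13, adjusted p = 0.00338). This share of 15.4% stood beside 20.4% of all genes tested and 3.38% of the 6426 most expressed genes. By the adjusted p alone 9 were lowered (69.2%, background 31.7%, and 19.4% in these 6426 genes) and 0 were raised. The median was -0.31 with guide 2. In the libraries labelled guide 1, 12 of the 13 also had a negative value, with a median of -0.13. There 2 were lowered by the adjusted p alone (15.4%) and 0 were raised. The share lowered was 33.0% of all genes tested and 40.9% of these 6426 genes.

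Among 9 regulators of nuclear genes for mitochondria, NRF1 was lowered at both limits with guide 2 (-1.13 ± 0.05, adjusted p = 2.86e-16). Its level went from 103, 97.6 and 102 CPM in shScramble to 47.1, 43.0 and 48.0 CPM. In the libraries labelled guide 1 it was at 60.2, 56.6 and 58.7 CPM, also below every shScramble library. MYC was raised, from 124, 124 and 127 CPM to 233, 225 and 249 CPM (0.92 ± 0.05, adjusted p = 1.67e-15), and was at 141, 144 and 149 CPM in the libraries labelled guide 1. No library of guide 2 overlapped shScramble for these genes. GABPA (-0.12 ± 0.05, adjusted p = 0.0613) and YY1 (0.12 ± 0.04, adjusted p = 0.0217) were within the fold limit. By the adjusted p alone 5 of the 9 were raised and 1 lowered (55.6% and 11.1%). The shares were 30.0% and 31.7% of all genes tested, and 54.9% and 19.4% of the 6426 most expressed. The share raised with guide 2 thus lay near that of the most expressed genes. In the libraries labelled guide 1, 1 of the 9 was raised and 2 were lowered at both limits, and 5 and 3 by the adjusted p alone (55.6% and 33.3%). The shares by the adjusted p alone there were 35.4% and 33.0% of all genes tested, and 36.6% and 40.9% of the most expressed.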

How the data were processed

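The authors trimmed adapters, removed low-quality reads, aligned to GRCh38 with STAR and counted reads per Ensembl gene with FeatureCounts; per the labels, Trim Galore, cutadapt and FastQC were also used. They deposited raw counts per gene and library with exon coordinates and merged exon lengths, without normalisation or pooling. Tool versions and the strand setting are not given in the sources used here. The annotation was Ensembl release 83 per the study's methods, and symbols were taken here from GENCODE release 44 of the same build.

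From these counts, edgeR 4.0.16 (R 4.3.3) gave TMM factors (0.928 to 1.04), removed genes with low counts (filterByExpr, minimum count 10, minimum total 15) and tested 19278 genes with a robust quasi-likelihood fit over all 9 libraries, one coefficient per group and no covariate. Fold changes are shMETTL3 over shScramble, or guide 2 over guide 1, and errors are standard errors of the log2 fold change. The study's tool, DESeq2 (1.42.0), was an alternative. Other alternatives were its size factors, library size alone, no filter, genes averaging 1 CPM or more, a fit without the third group, a block for the replicate number, a test against the fold limit (glmTreat) and each library left out in turn. The fit was tested on simulated data.

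Named members were the 8 highest and 8 lowest log2 fold changes for guide 2, the 5 highest and 5 lowest of the other comparisons, the 5 highest and 3 lowest by RPKM, the member that failed the filter and members chosen by role. Of the other lists, the highest and lowest called gene for guide 2 was named. Members, lists, motifs and printed promoters were chosen with earlier results of these data known. The list of cytosolic ribosomal proteins and the motifs were added after the tests, and GABPA, YY1, MRPL17, MRPL24, MRPL37 and MRPS17 were named after their values were seen. Libraries of a group differed by more than sampling noise. Promoters are from RefSeq.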

Additional observations from a re-analysis of the deposited data

Results flagged for a closer look

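The direct test of guide 2 against the libraries labelled guide 1 called 15 of the members named by rule (quasi-likelihood test of edgeR). The limits were a fold of 1.5 or more and a Benjamini-Hochberg adjusted p under 0.05. The rule used the highest and lowest values of this comparison in part, so the count does not show how common such differences are. Of all 77 members tested, 23 were higher with guide 2 (29.9%) and 2 were lower (2.60%) at these limits. The shares were 19.1% and 28.2% of all genes tested, and 22.3% and 9.73% of the 6426 most expressed. The log2 difference, guide 2 minus guide 1, was 1.48 for MRPL34, 1.32 for MRPL36, 1.21 for MRPL57, 1.09 for MRPS27, 1.01 for MRPL41, 0.97 for MRPS12, 0.91 for MRPL20, 0.85 for MRPS36, 0.75 for MRPS35, 0.74 for MRPL14, 0.72 for MRPL44, 0.70 for MRPL16 and 0.67 for MRPL51. It was -0.75 for MRPS18C and -1.01 for MRPL53, the members that were higher in the libraries labelled guide 1. In these libraries METTL3 was not lowered and HEK293T-type markers summed to 330 to 379 CPM, against 8.20 to 9.49 CPM with guide 2, and the part of this in the differences was not tested.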

How the results depend on the processing

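With guide 2, between 13 and 17 members were raised at both limits under DESeq2, its size factors, no filter, genes averaging 1 CPM or more and a fit of only the 6 libraries compared, and 15 to 16 without any single library, whereas library size alone and glmTreat gave 7 each. Over all 19278 genes tested, the number raised also fell, from 1706 to 1012 with library size alone and to 890 with glmTreat. Library size alone also gave 4 members lowered by the adjusted p alone and a median of 0.22, while the median of all genes tested moved from -0.04 to -0.19, and genes averaging 1 CPM or more gave a median of 0.32. Without single libraries, 1 to 2 members were lowered by the adjusted p alone, 1 each without shScramble replicate 1, shScramble replicate 2 or guide 2 replicate 3. In the libraries labelled guide 1, glmTreat called 2 members, 1 in each direction, and 1 to 4 were lowered at both limits without single libraries, 4 without guide 1 replicate 1 and 1 without guide 1 replicate 2. Over all genes tested, glmTreat gave 3266 raised and 1676 lowered there, against 4083 and 3182 in the main fit. For guide 2 against guide 1, library size alone gave 14 raised members and a median of 0.21, while the genes raised over all tested went from 3683 to 2822. Same-numbered libraries did not deviate together (correlations of -0.10 to 0.05, and of -0.05 to 0.11 between libraries of different numbers). No pairing by number was seen, but such values cannot tell whether libraries of 1 number were handled together. With the replicate block 15, 5 and 25 members were called in the 3 comparisons, with a median of 0.37 for guide 2. The cause of these shifts was not tested.

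Values near 0 changed sign. With guide 2, library size alone gave -0.078 for MRPL39, -0.014 for MRPL46, -0.13 for MRPL52, -0.084 for MRPL55, -0.028 for MRPS10 and -0.082 for MRPS22. MRPL52 was -0.025 among genes averaging 1 CPM or more and -0.034 to 0.091 without single libraries. MRPL53 was 3.7e-05 with DESeq2, 0.0050 without the filter, 0.00017 with the replicate block and -0.16 to 0.30 without single libraries. In the libraries labelled guide 1, library size alone gave -0.0094 for MRPL14 and -0.00095 for MRPS22, and genes averaging 1 CPM or more gave -0.0012 for MRPL14. Without single libraries the ranges were -0.028 to 0.34 for MRPL12, -0.063 to 0.073 for MRPL14, -0.14 to 0.041 for MRPL36, -0.056 to 0.048 for MRPL44, -0.064 to 0.098 for MRPL46, -0.099 to 0.016 for MRPL54 and -0.019 to 0.038 for MRPS22. For guide 2 against guide 1, library size alone gave -0.018 for MRPL46, -0.11 for MRPS18B and -0.081 for MRPS22, and genes averaging 1 CPM or more gave -0.013 for MRPS18B. None of these values was called at both limits. The lowest count of a tested member in a library was 36, for MRPL53 in guide 2 replicate 1, and the untested MRPS24 had fewer. The cause of their low counts was not tested.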
